A study of Mus musculus with 6 samples.

Results

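Translation initiation factors are the proteins that bring the initiator tRNA, the small ribosomal subunit and an mRNA together before a protein is made. The genes described here are the protein-coding genes whose symbols begin with Eif1, Eif2, Eif3, Eif4, Eif5 or Eif6 in the GENCODE M21 annotation, 55 of the 55487 genes in the deposited tables. They were chosen by name and not by any measured value. RNA was measured in CD45+ cells, total hematopoietic cells in the labels, taken either from mesenteric lymph node (mLN), a gut-draining node, or from spleen, in WT C57BL6/J mice. The cells were freshly prepared, and no agent, age or sex is given for either tissue. There were 3 mLN and 3 spleen libraries of polyA RNA, made with a directional kit, and no label ties a replicate to an animal. The p-values below therefore reflect the variation among these libraries alone, and that variation may be technical.

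In initiation, eIF2 carries the initiator tRNA to the ribosome in its GTP-bound form, eIF2B recharges eIF2 with GTP, and a family of stress-activated kinases phosphorylates eIF2 and so turns eIF2B off. eIF3 is the large scaffold on the small ribosomal subunit. eIF4E binds the mRNA cap, eIF4G ties it to the ribosome and the helicase eIF4A, aided by eIF4B and eIF4H, unwinds the leader. The 4E-binding proteins keep eIF4E from eIF4G until the kinase complex mTORC1 releases them. In lymphocytes, activation and growth are accompanied by higher translation, and these factors are regulated largely at the level of protein and phosphorylation, which RNA does not show.

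The mLN libraries held 12584244 to 18119551 expected counts and the spleen libraries 16163783 to 17133045. Ptprc, which encodes CD45, was at 2652 to 2715 CPM in mLN libraries and 2161 to 2235 CPM in spleen libraries. CPM here is the count scaled to library size with TMM factors. The cell make-up of the 2 tissues differed in the marker lists, which were set with earlier results of these data known. All 14 of 14 T-cell markers were called higher in mLN, with a summed level of 4301 to 4335 CPM in mLN libraries and 1861 to 1871 CPM in spleen libraries. All 12 of 12 B-cell markers were called lower, at 4159 to 4231 CPM in mLN and 7260 to 7356 CPM in spleen. Likewise, 12 of 12 erythroid markers (22.8 to 30.9 CPM in mLN, 2355 to 2470 CPM in spleen) and 10 of 10 neutrophil markers (16.7 to 17.4 CPM in mLN, 1509 to 1542 CPM in spleen) were called lower. The neutrophil gene Elane had no counts in mLN. The 10 proliferation markers were also all called lower (737.9 to 772.3 CPM in mLN, 1302 to 1341 CPM in spleen), as were 7 of 8 plasma-cell markers. Of 8 stromal and endothelial markers, all but Pecam1, which leukocytes also express, averaged at most 3.08 CPM in either tissue. In such bulk samples a change in the number of cells of a type and a change in RNA per cell cannot be told apart. The part of these cell-type differences in the values below was not tested.

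Some of the promoter sequence of these genes is shown first, to set beside the values that follow. Shown are that around the E-box and that of the interferon-inducible kinase gene Eif2ak2. Myc, a factor that can bind the E-box, is described with the pathway genes. No relation between these letters and the values was tested. RefSeq windows (GRCm38.p6) of 250 bases before to 50 bases after an annotated start were searched on both strands, and 43 of the 55 genes had such a window. The E-box CACGTG, a site that Myc and its partner Max can bind, reads the same on both strands. It was found in 10 of the 43 genes, and in 8.09% of the 27025 genes with a window. The 4 of these genes shown here were chosen after their values were seen, because they were called and their box lies before a RefSeq start: Eif3f and Eif4a1 were called higher in mLN, Eif4h and Eif5a lower. The Eif5a box lies inside the gene as GENCODE annotates it (chr11:69916714-69921958). A second Eif5a box, not shown, begins 178 bases before another RefSeq start (chr11:69920803-69920808). Each line gives 60 bases read 5′ to 3′ on the strand of the gene, with the E-box in capitals.
Eif3f, chr7:108934320-108934379, plus strand: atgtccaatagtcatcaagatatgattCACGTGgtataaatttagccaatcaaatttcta
Eif4a1, chr11:69672580-69672639, minus strand: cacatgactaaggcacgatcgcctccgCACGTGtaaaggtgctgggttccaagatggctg
Eif4h, chr5:134639473-134639532, minus strand: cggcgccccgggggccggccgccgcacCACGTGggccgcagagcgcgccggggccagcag
Eif5a, chr11:69921428-69921487, minus strand: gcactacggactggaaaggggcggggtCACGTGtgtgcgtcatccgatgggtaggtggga
The same box therefore stood before a RefSeq start of genes called in either direction. It also lay in the window of Eif3a, called higher, 23 bases after the start, and in those of Eif1b, Eif3k, Eif4e, Eif4g1 and Eif5a2, which were not called. An interferon response element, written as GAAA, any 2 bases and GAAA, and searched on both strands, was found in 4 of the 43 genes, and in 3.99% of all genes with a window. The 4 were Eif2ak2, Eif2s1, Eif2s3x and Eif3a. In Eif2ak2 it began 19 bases after the start, and it is shown with its flanks, the element in capitals.
Eif2ak2, chr17:78882535-78882564, minus strand: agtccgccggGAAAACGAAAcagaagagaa
A match is a description of the letters in this window and was not tested for binding.

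Levels were set side by side on the authors' TPM scale, which corrects for transcript length. The 55 genes together took 8133 to 8153 TPM in mLN libraries and 7696 to 7805 TPM in spleen libraries, and the tissues did not overlap. The highest was Eif1, which guards the choice of start codon, at 738.3 TPM in mLN and 653.8 TPM in spleen on average. Next by the mean over all libraries came Eif4a2, a helicase gene (709.7 TPM in mLN, 652.3 TPM in spleen), then Eif5a (520.3 TPM in mLN, 601.7 TPM in spleen) and the other main helicase gene Eif4a1 (606.0 TPM in mLN, 513.6 TPM in spleen). Eif4a1 lay above Eif5a in mLN and below it in spleen. Subunits of the scaffold eIF3 lay close together. The means of 12 of its 14 genes ranged over the tissues from 131.5 TPM (Eif3l in spleen) to 372.3 TPM (Eif3h in mLN). The genes of the loosely bound subunit eIF3j were lower, with Eif3j1 at 26.0 TPM in mLN and 23.9 TPM in spleen and Eif3j2 at 2.75 to 3.28 TPM in mLN libraries and 1.30 to 3.64 TPM in spleen libraries. In eIF2B, by contrast, levels spread from 13.3 TPM in mLN and 14.5 TPM in spleen for Eif2b3 to 105.4 TPM in mLN and 103.4 TPM in spleen for Eif2b2. Eif4e1b, a germline form of the cap-binding protein, had no counts in any library, which allows at most 0.166 to 0.238 CPM of a library's total count, for counting error only.

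**Figure D1:**
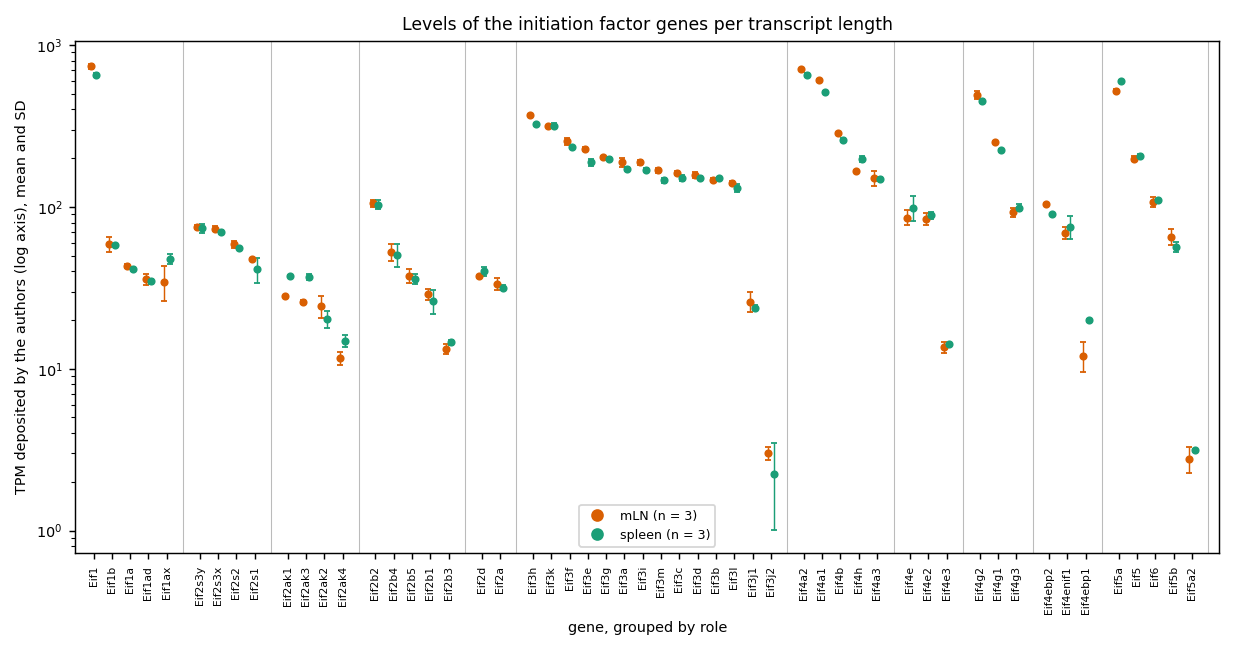
Mean TPM as deposited by the authors, on a log axis, of the initiation factor genes grouped by role, in mLN and spleen (points, n = 3 each; bars, SD). Eif4e1b, with no counts, and Eif4ebp3, with a library at 0 in each tissue, are left out. Most pairs of points lie close together, while Eif4ebp1 stands at 12.02 TPM in mLN and 19.95 TPM in spleen.

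Of the 55 genes 54 passed the filter on low counts and were tested. By edgeR's quasi-likelihood test with Benjamini-Hochberg adjustment over 14427 genes (called at an adjusted p under 0.05), 19 were called higher and 6 lower in mLN, and 29 were not called. Over all genes tested 21.8% were called higher and 23.8% lower, and 45.5% in either direction. Since initiation factor genes are well expressed, the same counts were taken at a mean of at least 10 CPM. There 19 of 51 genes were called higher and 6 lower, against 27.9% higher and 23.6% lower of 9295 genes. The changes were small. The median log2 fold change (mLN over spleen) was 0.09 over the 54 genes and -0.002 over all genes tested. At a mean of at least 10 CPM it was 0.083 over the 51 genes and 0.024 over the 9295 genes. None of the 54 reached an absolute value of 1. Only 1 gene, Eif4ebp1, was called with an absolute value of at least 0.5, as were 22.2% of all genes tested. In CPM the mLN libraries lay above all spleen libraries for 24 genes and below all of them for 7, against 25.5% and 27.5% of all genes tested (52.9% in either direction). The test rests on a small spread between libraries. With a coefficient of variation of 0.2 assumed for every gene in place of the estimated spread (0.055 as the common value), 0 genes were called higher and 1 lower, again Eif4ebp1.

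**Figure D2:**
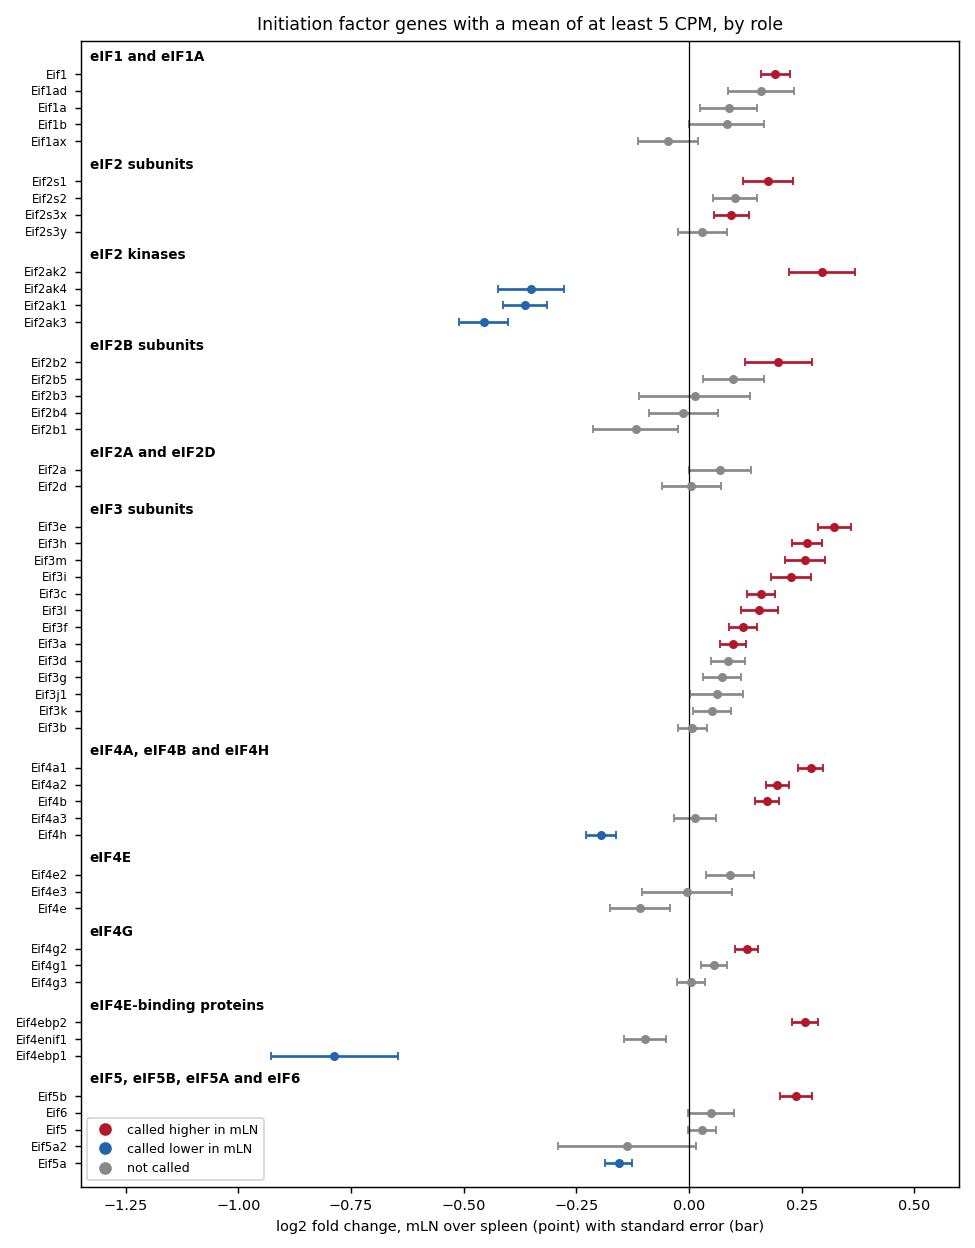
Log2 fold change, mLN over spleen (points), with its standard error (bars), of the 52 tested initiation factor genes with a mean of at least 5 CPM, grouped by role and coloured by the edgeR call at an adjusted p under 0.05. All 13 eIF3 genes drawn lie above 0, 3 of the 4 eIF2 kinase genes lie below it, and Eif4ebp1 is farthest from it at -0.79.

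The first steps of initiation use eIF1, eIF1A and eIF2. Eif1 was at 310.7, 302.9 and 300.0 CPM in mLN libraries, against 261.4, 273.4 and 265.2 CPM in spleen libraries. It rose (log2 fold change 0.19, SE 0.032, adjusted p = 2.26e-06), and every mLN value lay above every spleen value. The other genes of the group, Eif1a, Eif1ad, Eif1ax and Eif1b, were not called (log2 fold changes -0.05 to 0.16), though Eif1ad was without mLN replicate 2 (0.23, edgeR adjusted p = 0.0156). The TPM of Eif1ax, the X-linked eIF1A gene, went further apart than its counts, at 28.4, 31.4 and 44.0 TPM in mLN libraries and 50.03, 49.94 and 43.68 TPM in spleen libraries. Its effective length, the transcript length by which RSEM divides, averaged 2153 bases in mLN and 1610 bases in spleen. With that length as an offset its log2 fold change was -0.43 (edgeR adjusted p = 0.0491).

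Genes of the eIF2 trimer differed little. Eif2s1, the alpha subunit that the kinases phosphorylate, stood at 79.4, 81.4 and 79.3 CPM in mLN libraries and at 68.0, 71.5 and 73.3 CPM in spleen libraries. All mLN values lay above all spleen values, with a log2 fold change of 0.18 (edgeR adjusted p = 0.00763), but without spleen replicate 1 the call was lost (0.14, adjusted p = 0.0553), as it was with the effective-length offset (0.28, adjusted p = 0.0835). The beta subunit gene Eif2s2 (log2 fold change 0.10) was called only without mLN replicate 2 (0.14, edgeR adjusted p = 0.0344). The gamma subunit, which binds GTP and the tRNA, has an X-linked and a Y-linked gene in mice. Eif2s3x was at 177.3, 166.5 and 168.2 CPM in mLN libraries and 163.7, 152.3 and 163.5 CPM in spleen libraries. Its call was marginal (log2 fold change 0.09, edgeR adjusted p = 0.0437) and was lost without mLN replicate 1 (0.07, adjusted p = 0.226), without spleen replicate 2 (0.06, adjusted p = 0.278) and with the DESeq2 Wald test (adjusted p = 0.0909). It was also lost with no filter on low counts (edgeR adjusted p = 0.0704), with at least 10 CPM required (0.0941) and with the effective-length offset (0.099). Eif2s3y was at 82.7, 81.6 and 82.7 CPM in mLN and 74.9, 82.4 and 84.6 CPM in spleen, which overlap, and was not called (log2 fold change 0.03, edgeR adjusted p = 0.693).

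The presence of Eif2s3y goes with the other Y-linked genes. Ddx3y was at 152.6 to 157.6 CPM in mLN libraries and 127.0 to 134.8 CPM in spleen libraries, and Xist, the RNA of the inactive X chromosome, was at most 0.162 CPM in mLN and 0.183 CPM in spleen. Per transcript length the Y-linked copy made up 50.3%, 50.7% and 50.6% of the gamma subunit RNA in mLN libraries and 48.8%, 53.5% and 51.6% in spleen libraries. The tissues overlapped in this share. The copies are alike in sequence, so the split rests on how RSEM apportioned shared reads.

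All 4 eIF2 kinase genes were called, 1 higher and 3 lower, beside 21.8% called higher and 23.8% lower over all genes tested. The median log2 fold change was -0.36. Eif2ak3, which encodes PERK, the kinase that senses unfolded protein in the endoplasmic reticulum, fell most (chromosome 6, 70844515 to 70905245, GRCm38). It stood at 65.3, 64.2 and 64.9 CPM in mLN libraries, against 89.1, 92.6 and 84.8 CPM in spleen libraries, a log2 fold change of -0.46 (SE 0.055, edgeR adjusted p = 2.92e-09). No mLN value came near the lowest spleen value. The 7 of 8 plasma-cell markers called lower moved with it (404.1 to 423.0 CPM summed in mLN, 1074 to 1083 CPM in spleen), and their part in this fall was not tested.

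Eif2ak1 encodes HRI, the kinase that matches globin synthesis to haem in red-cell precursors (chromosome 5, 143817788 to 143904251). It was at 78.9, 80.1 and 80.8 CPM in mLN libraries and at 102.2, 104.8 and 101.7 CPM in spleen libraries. It fell without overlap (log2 fold change -0.36, SE 0.048, edgeR adjusted p = 2.92e-08). All 12 erythroid markers were called lower beside it (summed 22.8 to 30.9 CPM in mLN, 2355 to 2470 CPM in spleen), and their part in this fall was not tested. Eif2ak4, the amino-acid sensor GCN2, was at 36.6, 37.4 and 34.1 CPM in mLN libraries and at 47.2, 46.4 and 44.5 CPM in spleen libraries, and fell by 0.35 on the log2 scale (edgeR adjusted p = 0.000106).

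Eif2ak2, which encodes PKR, the kinase of double-stranded RNA whose promoter element is shown above (chromosome 17, 78852564 to 78882573), went the other way. It was at 57.4, 53.4 and 50.7 CPM in mLN libraries and at 40.8, 48.9 and 42.1 CPM in spleen libraries. It rose (log2 fold change 0.30, SE 0.073, edgeR adjusted p = 0.000898), with the lowest mLN library just above the highest spleen library. With the effective length as an offset the call was lost (log2 fold change 0.32, adjusted p = 0.0807). Summed per transcript length, the 4 kinases were at 84.4 to 95.2 TPM in mLN and 108.9 to 110.7 TPM in spleen, without overlap.

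**Figure D3:**
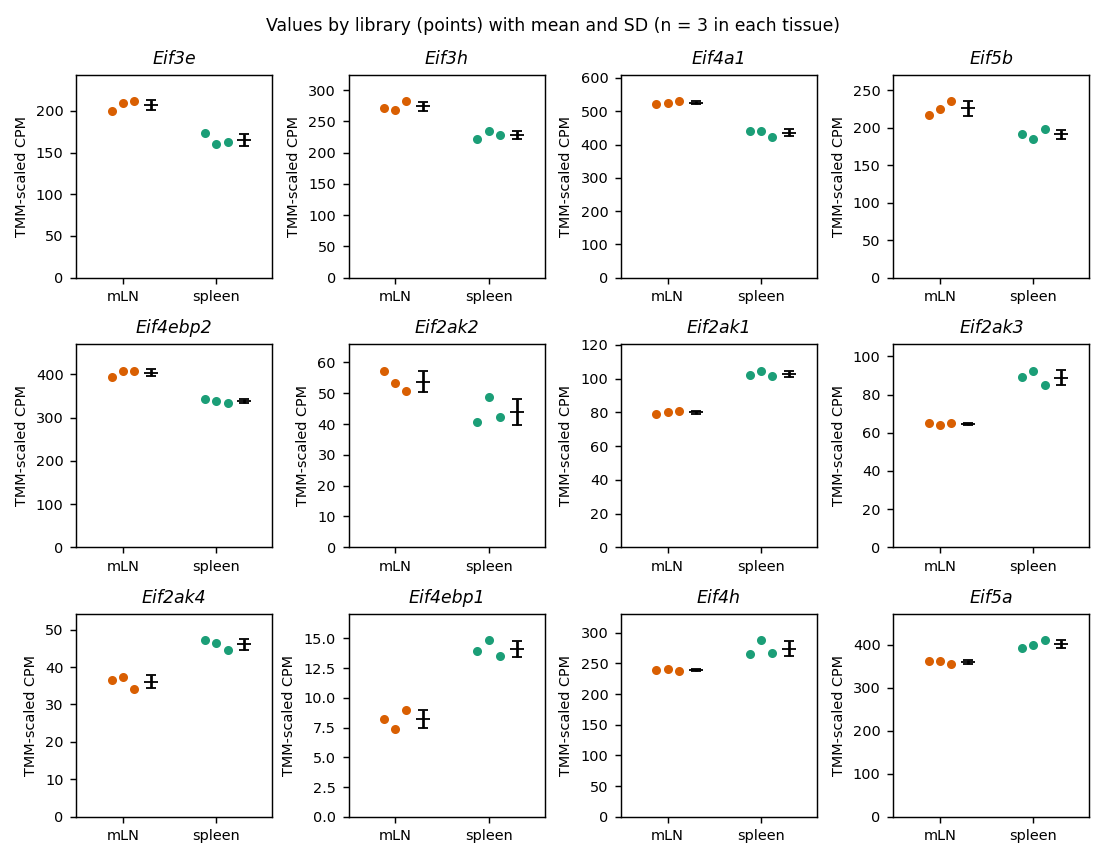
TMM-scaled CPM of 12 initiation factor genes in each library (points), with mean and SD (bars, n = 3) in mLN and spleen, each axis starting at 0. The 12 were picked from the called genes, and in every panel the 3 mLN libraries lie on 1 side of the 3 spleen libraries. Among all 54 tested initiation factor genes the tissues overlap for 23. Eif2ak1 averages 79.9 CPM in mLN and 102.9 CPM in spleen.

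eIF2B, the exchange factor that phosphorylated eIF2 turns off, had 5 genes with a median log2 fold change of 0.01. Of these 1 was called higher, 0 lower and 4 were not called, and the tissues overlapped in CPM for all 5. Of all genes tested 21.8% were called higher and 23.8% lower, and the tissues did not overlap for 52.9%. The called gene was Eif2b2, at 47.0, 51.5 and 59.0 CPM in mLN libraries and 42.6, 48.4 and 45.9 CPM in spleen libraries (log2 fold change 0.20, edgeR adjusted p = 0.0285). That call was lost without mLN replicate 3 (adjusted p = 0.254), spleen replicate 1 (0.17) or spleen replicate 3 (0.0717) and with DESeq2 (0.0578) or the effective-length offset (0.526). The genes of eIF2A and eIF2D, which can deliver tRNA without eIF2, were not called. Of these Eif2d had 55.2, 54.0 and 56.3 CPM in mLN libraries and 55.6, 57.4 and 51.9 CPM in spleen libraries, values that overlap.

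Of the 14 genes of the eIF3 scaffold 8 rose (57.1%), 0 fell and 6 were not called. Beside them, 21.8% of all genes tested were called higher and 23.8% lower, and 27.9% and 23.6% at a mean of at least 10 CPM. All 14 fitted log2 fold changes were above 0, from 0.01 (Eif3b) to 0.47 (Eif3j2), with a median of 0.14. The sign of Eif3b turned with at least 10 CPM required and without mLN replicate 2, mLN replicate 3 or spleen replicate 3. In CPM 11 genes had every mLN library above every spleen library, as had 25.5% of all genes tested. Eif3e, a subunit of the PCI type (chromosome 15, 43250058 to 43282719), rose most among the called genes. It stood at 200.3, 208.8 and 211.7 CPM in mLN libraries, against 173.5, 159.7 and 162.8 CPM in spleen libraries (log2 fold change 0.32, SE 0.037, edgeR adjusted p = 1.05e-09). Eif3h, which carries an MPN domain, followed at 270.5, 268.2 and 282.4 CPM in mLN libraries and 222.1, 234.1 and 228.6 CPM in spleen libraries (0.26, edgeR adjusted p = 1.04e-08). The other rises were Eif3m (0.26), Eif3i (0.23), Eif3c (0.16), Eif3l (0.16), Eif3f (0.12) and Eif3a (0.10). The call of Eif3a was lost without mLN replicate 2 (0.08, edgeR adjusted p = 0.0549) or spleen replicate 1 (0.07, adjusted p = 0.0813), and that of Eif3l with the effective-length offset (0.15, adjusted p = 0.0605).

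Sorted by architecture, a grouping added after the values were seen and therefore only described, the rises lay mostly in the PCI and MPN octamer that forms the body of eIF3. There 7 of 8 genes were called higher, all but Eif3k (0.05), beside 21.8% of all genes tested. Of the module made by Eif3b, Eif3g and Eif3i, which reaches to the mRNA entry side, 1 of 3 was called. Eif3d, the subunit that can bind a cap itself, stood at 0.09 on the log2 scale and was called only without spleen replicate 2 (0.11, edgeR adjusted p = 0.0328). Neither eIF3j gene was called, and Eif3j2, with 31.07 to 92.17 expected counts per library, reached a log2 fold change of 1.01 (edgeR adjusted p = 0.00874) when spleen replicate 1 was left out. Summed per transcript length, eIF3 was at 2531, 2565 and 2567 TPM in mLN libraries and 2374, 2368 and 2343 TPM in spleen libraries, a ratio of means of 1.08.

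Genes of the cap-binding machinery were called in both directions. Over the 16 genes whose symbols begin with Eif4, 15 were tested, 5 rose (33.3%), 2 fell (13.3%), and the median log2 fold change was 0.06. The shares over all genes tested were 21.8% higher and 23.8% lower, and 27.9% and 23.6% at a mean of at least 10 CPM. Among the helicase and its helpers 3 of 5 rose and 1 fell. Eif4a1 (chromosome 11, 69666936 to 69672423) was at 521.6, 523.7 and 530.6 CPM in mLN libraries and 441.4, 441.9 and 423.5 CPM in spleen libraries. It rose without overlap (log2 fold change 0.27, SE 0.028, edgeR adjusted p = 9.20e-11). Its close relative Eif4a2 rose by 0.20 and Eif4b, which stimulates the helicase, by 0.17. Eif4h, a smaller protein that also stimulates it, fell to 239.0, 240.7 and 237.0 CPM in mLN libraries, against 265.9, 288.0 and 267.3 CPM in spleen libraries (log2 fold change -0.20, edgeR adjusted p = 4.87e-06). Eif4a3, a helicase of the exon junction complex, was not called (0.01). Within the pair of helicase genes the ratio of Eif4a2 to Eif4a1 in TPM was 1.154, 1.146 and 1.216 in mLN libraries and 1.304, 1.211 and 1.296 in spleen libraries, which overlap.

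The cap-binding protein genes themselves were not called. Eif4e was at 62.4, 55.3 and 55.1 CPM in mLN libraries and 60.3, 59.0 and 67.1 CPM in spleen libraries, which overlap (log2 fold change -0.11, SE 0.066, edgeR adjusted p = 0.187). Eif4e2, a cap-binding protein that can repress translation, was at 102.8, 89.0 and 90.9 CPM in mLN libraries and 88.1, 87.3 and 89.9 CPM in spleen libraries, with mLN replicate 1 highest (log2 fold change 0.09). Of the eIF4G scaffolds, Eif4g2, which encodes the relative DAP5 that lacks the eIF4E-binding part, rose (911.1, 923.6 and 887.4 CPM in mLN libraries, 815.8, 837.3 and 838.4 CPM in spleen libraries, log2 fold change 0.13, edgeR adjusted p = 4.78e-05). Eif4g1 (0.06) and Eif4g3 (0.004) were not called. With the effective-length offset Eif4g1 was called (0.22, edgeR adjusted p = 0.000387).

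The 4E-binding proteins, the brakes on eIF4E, went in opposite directions. Eif4ebp1 (chromosome 8, 27260329 to 27276674) showed the largest change of any called initiation factor gene. It stood at 8.21, 7.42 and 8.99 CPM in mLN libraries, against 13.9, 14.9 and 13.5 CPM in spleen libraries, and was 1.73-fold lower in mLN (log2 fold change -0.79, SE 0.14, edgeR adjusted p = 1.03e-05). The highest mLN library lay well below the lowest spleen library. Eif4ebp2 (chromosome 10, 61428491 to 61452661) rose, and was the higher of the pair per transcript length, at 104.3 TPM in mLN and 90.04 TPM in spleen. It was at 394.7, 408.8 and 408.4 CPM in mLN libraries and 341.9, 338.2 and 333.5 CPM in spleen libraries (log2 fold change 0.26, SE 0.030, edgeR adjusted p = 9.90e-10). Per transcript length, Eif4ebp1 made up 11.9%, 7.97% and 11.1% of the RNA of this pair in mLN libraries and 18.2%, 18.2% and 17.9% in spleen libraries, without overlap. Their sum was 115.8, 114.6 and 118.5 TPM in mLN libraries and 111.1, 110.3 and 108.6 TPM in spleen libraries, with mLN above. Eif4ebp3 was at 0, 2.02 and 1.70 CPM in mLN libraries and 0, 2.38 and 0.837 CPM in spleen libraries which overlap, and was not called (log2 fold change 0.23, SE 1.59, edgeR adjusted p = 0.93). Eif4enif1, which carries eIF4E into the nucleus, was not called (-0.10), though it was without spleen replicate 3 (-0.13, edgeR adjusted p = 0.0459) and with at least 10 CPM required (-0.12, adjusted p = 0.036).

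The last steps are subunit joining and the first peptide bonds. Eif5b, the GTPase that joins the large ribosomal subunit, rose to 216.4, 224.8 and 235.4 CPM in mLN libraries, against 190.9, 185.4 and 197.5 CPM in spleen libraries (log2 fold change 0.24, SE 0.036, edgeR adjusted p = 5.17e-07). Eif5a, the factor that carries the amino acid hypusine and helps elongation past difficult peptide bonds, fell to 363.4, 361.3 and 355.2 CPM in mLN libraries, against 393.5, 399.0 and 411.1 CPM in spleen libraries (-0.16, edgeR adjusted p = 2.38e-05). Neither gene's tissues overlapped. Eif5, Eif5a2 and Eif6 were not called (-0.14 to 0.05).

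**Figure D4:**
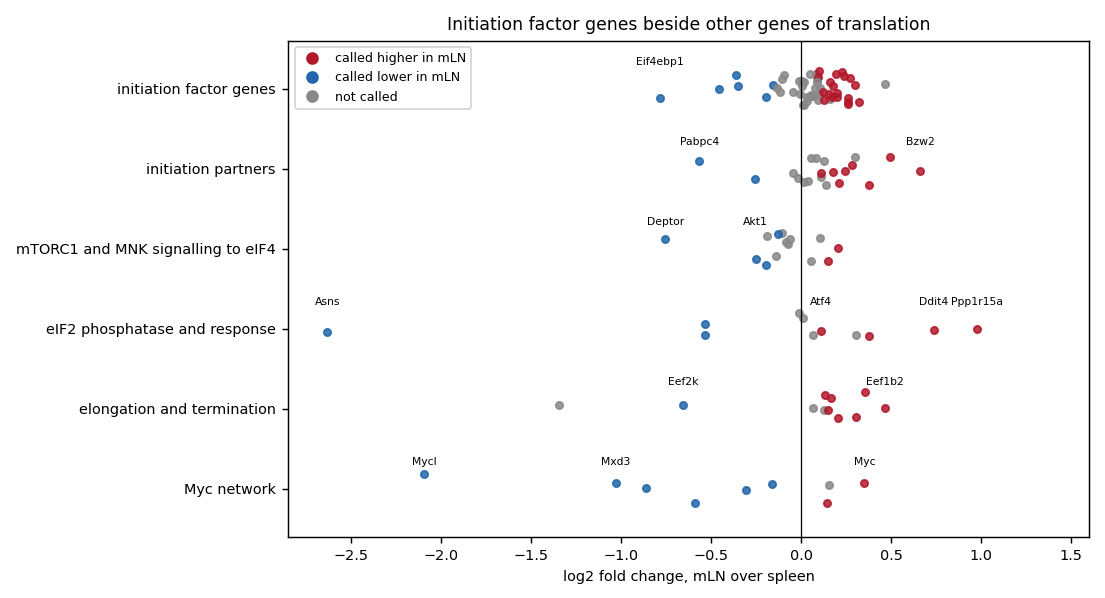
Log2 fold change, mLN over spleen, of each tested gene (points, coloured by the edgeR call) in the initiation factor genes and in 5 lists of other translation genes; Eif4ebp3 is left out, and the vertical scatter only separates points. Asns at -2.63 and Ppp1r15a at 0.97 lie at the ends of the list around eIF2 phosphorylation.

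Other genes of the pathway were read from the same test. Their counts stand beside the 21.8% called higher and 23.8% called lower over all genes tested. Among 20 partners of the initiation factors 8 rose (40.0%) and 2 fell. Pdcd4, which holds eIF4A away from mRNA, was at 253.4, 253.8 and 249.3 CPM in mLN libraries and 166.1, 188.5 and 183.7 CPM in spleen libraries (log2 fold change 0.49, edgeR adjusted p = 1.98e-14). Bzw2, which mimics part of eIF5, rose by 0.66 and Paip2b, an inhibitor of poly(A)-binding protein, by 0.38, while Pabpc4, a gene of a poly(A)-binding protein, had a log2 fold change of -0.57. Pabpc1, the more abundant gene of that family, named after its values were seen, was called higher (1790 ± 45.9 CPM in mLN, 1470 ± 6.91 CPM in spleen, SD, n = 3 each; 0.28, edgeR adjusted p = 5.74e-14). Dohh, an enzyme of eIF5A hypusine synthesis, was at -0.26, and its call was lost without mLN replicate 1 (edgeR adjusted p = 0.0614) or spleen replicate 2 (0.149) or under the offset for effective length (0.0701). Around mTORC1, the kinase complex that frees eIF4E, 2 of 14 genes rose and 4 fell (14.3% and 28.6%), shares near those over all genes. Rptor (0.20) and Pdpk1 (0.15) rose, and Akt1 (-0.25) fell. Mtor itself was at 94.9, 88.5 and 80.3 CPM in mLN libraries and 92.5, 92.1 and 91.6 CPM in spleen libraries and was not called (-0.06), but with the effective-length offset it was called lower (-0.33, adjusted p = 0.00546). Mknk1, whose product phosphorylates eIF4E, was at -0.19 with its call lost without mLN replicate 3 (edgeR adjusted p = 0.0638) and with that offset (0.0709). The mTORC1 inhibitor gene Deptor was at -0.75, a call that did not hold without mLN replicate 1, mLN replicate 2, spleen replicate 1 or spleen replicate 3 (edgeR adjusted p = 0.0593 to 0.163).

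Of 14 genes listed around eIF2 phosphorylation 13 matched a symbol and 11 were tested, with 4 called higher and 3 lower (36.4% and 27.3%). Ppp1r15a, which encodes the inducible GADD34 subunit of the eIF2 phosphatase, was at 133.4, 128.8 and 138.1 CPM in mLN libraries and 65.7, 71.3 and 66.5 CPM in spleen libraries (log2 fold change 0.97, edgeR adjusted p = 1.03e-20). Of 10 immediate-early markers 8 were called higher beside it (summed 1729 to 1766 CPM in mLN, 1101 to 1112 CPM in spleen), and their part in this rise was not tested. Ddit4, an inhibitor of mTORC1, rose by 0.74 and Dnajc3, an inhibitor of the eIF2 kinases, by 0.38. Atf4, the transcription factor whose mRNA is translated when eIF2 is phosphorylated, had a log2 fold change of 0.11 (edgeR adjusted p = 0.0127), and lost its call without mLN replicate 2 (adjusted p = 0.0666) or spleen replicate 1 (0.0565) or under the offset for effective length (0.154). Asns, the asparagine synthetase gene and an Atf4 target, was at 1.67, 1.46 and 3.40 CPM in mLN libraries and 13.7, 13.9 and 11.4 CPM in spleen libraries (-2.63, edgeR adjusted p = 4.25e-13), and Sesn2, another Atf4 target, was at -0.54. Atf5 was at -0.53, and its call was lost without mLN replicate 3 (adjusted p = 0.0919), spleen replicate 1 (0.0552) or spleen replicate 2 (0.105) or under the offset for effective length (0.0529). The targets Ddit3 (0.07) and Trib3 (0.31) were not called.

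In the elongation and termination list 11 of 12 genes were tested, and 7 rose and 1 fell (63.6% and 9.09%). The elongation factor 1 genes Eef1b2 (0.46), Eef1a1 (0.36) and Eef1g (0.30) rose most. Eef1a1 stood at 11770 ± 56.6 CPM in mLN and 9199 ± 71.6 CPM in spleen (SD, n = 3 each; edgeR adjusted p = 4.10e-22). Eef2k, the kinase that inhibits elongation factor 2, had a log2 fold change of -0.66. In the Myc network 9 of 10 genes were tested, and 2 rose and 6 fell (22.2% and 66.7%). Myc was at 131.2, 135.5 and 134.6 CPM in mLN libraries and 105.3, 107.0 and 102.6 CPM in spleen libraries, without overlap (0.35, edgeR adjusted p = 2.49e-09). Its partner Max had a log2 fold change of 0.14 (edgeR adjusted p = 0.0106), lost without mLN replicate 3 (adjusted p = 0.0671) and reversed in sign (-0.05) with the effective-length offset. Mycl (-2.09), Mxd3 (-1.03) and Mxi1 (-0.86) had the largest falls, and with the effective-length offset that of Mycl was -1.04 (edgeR adjusted p = 0.034). Mxd3 and Mxi1 encode Max partners that oppose Myc.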

How the data were processed

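The authors deposited an RSEM gene table for each library, made with STAR and RSEM on mm10 per the submitters' processing notes. For versions, transcript annotation and strand setting no value is given in the sources used here. The deposited expected count is an estimate that apportions shared reads by a model. The authors' TPM is scaled to transcript length and library. The effective length entered 1 alternative. Of 55487 gene IDs, 55141 matched GENCODE M21.

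Expected counts were rounded, filtered with filterByExpr by tissue (14427 genes kept), scaled with TMM factors and tested with the robust quasi-likelihood F-test of edgeR 4.0.16 in R 4.3.3, two-sided, tissue as the only term, with Benjamini-Hochberg adjustment. SE was taken from the F statistic. The procedure was run on simulated data with 200 genes changed and a common spread for all genes. In the data 45.5% of genes tested were called, so that run does not show how the calls hold here. DESeq2 1.42.0 was an alternative.

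Within a tissue, the median squared difference between libraries was 2.52 to 2.97 times that of counting noise, and all 6 were kept. Members were set by their symbols and not by their values, but members, lists and tests were all settled with earlier results of these data known. Values in every library are given for called members at or past 0.5 in absolute log2 fold change, the largest called rise and fall of each role group (or its highest gene), and 11 members fixed by name; from each pathway list up to 3 called rises and 3 falls are named, with Myc, Atf4, Mtor and Pdcd4.

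Values are uncertain where close copies share reads (Eif1a and Eif1ax, Eif2s3x and Eif2s3y, Eif3j1 and Eif3j2, Eif4a1 and Eif4a2, and 10 annotated pseudogenes, at most 9.61 CPM each). Without a known strand setting, reads of the 17 members overlapped by a gene on the opposite strand, Eif2ak1, Eif2ak2, Eif2ak3 and Eif5b among them, may not be separate. Eif4e3 and Eif4ebp3 each overlap a coding gene on the same strand (Gm20696 and AC115631.1), with which they may share reads. Reads carried no molecular identifiers.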

Additional observations from a re-analysis of the deposited data

How the results depend on the processing

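The counts of initiation factor genes called higher (19) and lower (6) stayed within 1.5 times under DESeq2 size factors, other filters, DESeq2, the effective-length offset and the removal of abundant gene families (15 to 19 higher, 6 to 7 lower). With an assumed coefficient of variation of 0.2 they were 0 higher and 1 lower, and among pathway genes 3 higher and 7 lower, against 23 and 16. Leaving out each library gave 17 to 20 genes higher and 6 to 7 lower, and 21 to 24 pathway genes higher and 13 to 17 lower. With at least 10 CPM required, median log2 fold changes were -0.0051 for eIF2B, 0.10 for eIF3 and 0.0169 for all eIF4 genes, and with the effective-length offset 0.105 for eIF2B and 0.17 for eIF3. Without a library they were 0.07 to 0.13 (eIF2), -0.0441 (mLN replicate 2) to 0.0573 (eIF2B), 0.12 to 0.14 (eIF3) and 0.0009 to 0.0731 (all eIF4). The filter at 10 CPM dropped Eif3j2 and Eif4ebp3, and TMM factors were taken anew on the genes kept. Log2 fold changes of the members still tested all moved down by a like amount under it. Eif1 went from 0.1917 to 0.1739 and Eif4h from -0.1959 to -0.2137. The cause of the other shifts in these medians was not tested. Of the called genes named, 1, Max, reversed (-0.0473, effective-length offset), and 14 initiation factor genes that were not called changed sign under some alternative. Whether the same replicate numbers pair the samples is not given in the labels. Deviations of same-numbered libraries from their tissue means correlated at 0.0182, 0.00393 and -0.0214. That cannot decide it, because paired samples would also give low correlations if the spread between libraries is technical. The replicate block gave 19 genes higher and 6 lower. Counts were low and uneven for Eif3j2 and Eif4ebp3, whose fold changes had SEs of 0.28 and 1.59. Eif4ebp3 had 0, 35.81 and 20.53 expected counts in mLN libraries and 0, 38.52 and 13.66 in spleen libraries. The reason for this unevenness was not tested.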
